A study of Mus musculus with 8 samples.

Results

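The nuclear genes of respiratory complex I were followed in the visual cortex of adult mice after miR-29a had been blocked. They were taken as every row of the deposited table whose symbol begins with Nduf, which gave 45 of 24883 rows. Of these, 38 are rows of subunits or subunit relatives (Ndufa, Ndufb, Ndufc, Ndufs and Ndufv) and 7 are rows of assembly factors (Ndufaf). The samples are visual cortex of C57BL/6J mice that received a locked nucleic acid (LNA) oligonucleotide by intracortical injection on postnatal day 122 and were harvested on day 129, 7 days later. The control oligonucleotide carried a scrambled sequence (4 libraries) and the other was complementary to miR-29a (4 libraries), so both groups had been injected. Nothing in the labels says that replicates are different animals, and the p-values below measure only the spread between these libraries, which may be technical.

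Complex I is the entry point of the mitochondrial respiratory chain. It takes electrons from NADH in the matrix, passes them along a chain of iron-sulfur clusters to ubiquinone, and pumps protons across the inner membrane. A matrix arm holds the NADH and ubiquinone reactions and a membrane arm holds the proton pumps, and around the catalytic core sits a shell of small accessory subunits. Assembly factors bind part-built modules and are absent from the finished enzyme. Neurons depend on this chain for much of the ATP that ion pumping and synaptic transmission consume.

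A microRNA recognises its targets mainly through its seed, bases 2 to 8 from its 5′ end, shown in capitals for the blocked microRNA (RefSeq, GRCm38.p6, 22 bases). The only match to the seed among the longest annotated 3′ UTRs of the 45 members lies in Ndufb8, a membrane-arm subunit. It is shown with the 7 matching bases in capitals and is on the minus strand of chr19:44549030-44549036 (GRCm38). That 3′ UTR is 1643 nt long, whereas the transcript used for the length of Ndufb8 is 680 nt. The match was thus found in a longer annotated transcript, and the FPKM row does not tell the transcripts apart. Of 13144 tested rows with an annotated 3′ UTR, 2071 (15.8%) held at least 1 such match. The members' 3′ UTRs are short, with a median of 235 nt against 1227 nt over the tested rows.
mmu-miR-29a-3p: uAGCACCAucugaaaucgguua
Ndufb8 site: agacactgcatgTGGTGCTcagacattcag

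The subunits were expressed at unlike levels. Values are FPKM, fragments scaled by transcript length and by library size, so levels can be set side by side between genes. Averaged over the 8 libraries, subunit rows ran from 3.64 FPKM for Ndufa4l2 to 309 FPKM for Ndufa4, with a median of 78.9. The 7 core subunits of the matrix arm had a median of 56.2 FPKM, with Ndufs1 the lowest at 29.8 FPKM. The assembly factors were about an order of magnitude lower, from 3.25 FPKM for Ndufaf6 to 23.9 FPKM for Ndufaf2, with a median of 7.71. All 45 rows passed the filter of a mean of at least 0.5 FPKM, so none was lost from the counts below. Within groups most rows were steady, with a median SD of 0.123 on the log2(FPKM + 0.1) scale, against 0.0944 for the 2992 tested rows in the range of 20 to 350 FPKM. The widest spreads were 0.92 for Ndufs5, described separately, and 0.47 for the low-level Ndufaf6.

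Most complex I rows read slightly higher in the anti-miR-29a libraries, but no row passed the test. A positive log2 difference was found in 40 of 45 rows, where 56.6% of all 13912 tested rows were positive. The subunit median was 0.13 log2 units (9.11% higher) and that of the assembly factors 0.11 (7.57% higher), beside 0.03 (1.81% higher) for all tested rows. With limma and Benjamini-Hochberg adjustment over all tested rows, 0 of 45 members passed an adjusted p of 0.05, where 2 of 13912 rows (0.0144%) did. The members' adjusted p ran from 0.22 to 0.977. At an unadjusted p under 0.05, 12 members were higher and 0 lower, against 7.54% and 3.18% of tested rows. Of tested rows with a mean of 20 to 350 FPKM, 386 of 2992 were higher at that p. Of those with a transcript of 200 to 1000 nt, 170 of 960 were. In 4 members every anti-miR-29a library lay above every scrambled one (4.02% of tested rows), and in 0 members every one lay below (2.29%). Every anti-miR-29a library was above in 210 of the 2992 rows of 20 to 350 FPKM and in 57 of the 960 rows of 200 to 1000 nt. The 12 members had differences of 0.12 to 0.29. Since this is bulk tissue, a change in the share of a cell type and a change in RNA per cell cannot be told apart.

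The count of 12 depended on single libraries and on scaling. It was 5 without scrambled replicate 1, 6 without anti-miR-29a replicate 2 and 7 without anti-miR-29a replicate 4. In those fits 1019, 754 and 872 of all 13912 tested rows were higher, beside 1049 with all libraries. With all libraries, median centring brought the count of members to 7, and quantile normalization and removal of a fitted curve on length and GC content gave 3 each. Over all rows these 3 settings gave 748 of 13912, 713 of 13912 and 834 of 13793. The subunit median was 0.08 with quantile normalization, 0.097 with median centring and 0.06 with the trend removed. The medians of all rows were then -0.0085, -0.0034 and 0.03. After removal of the trend 33 of 45 rows had a positive difference, where 57.6% of all rows did. The count of 4 members without overlap was 8 without scrambled replicate 3, 7 without scrambled replicate 4, 10 without anti-miR-29a replicate 1 and 8 without anti-miR-29a replicate 3, where fewer libraries are compared. Over all 13912 tested rows that count rose too, from 559 to 946, 837, 1055 and 984.

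**Figure D1:**
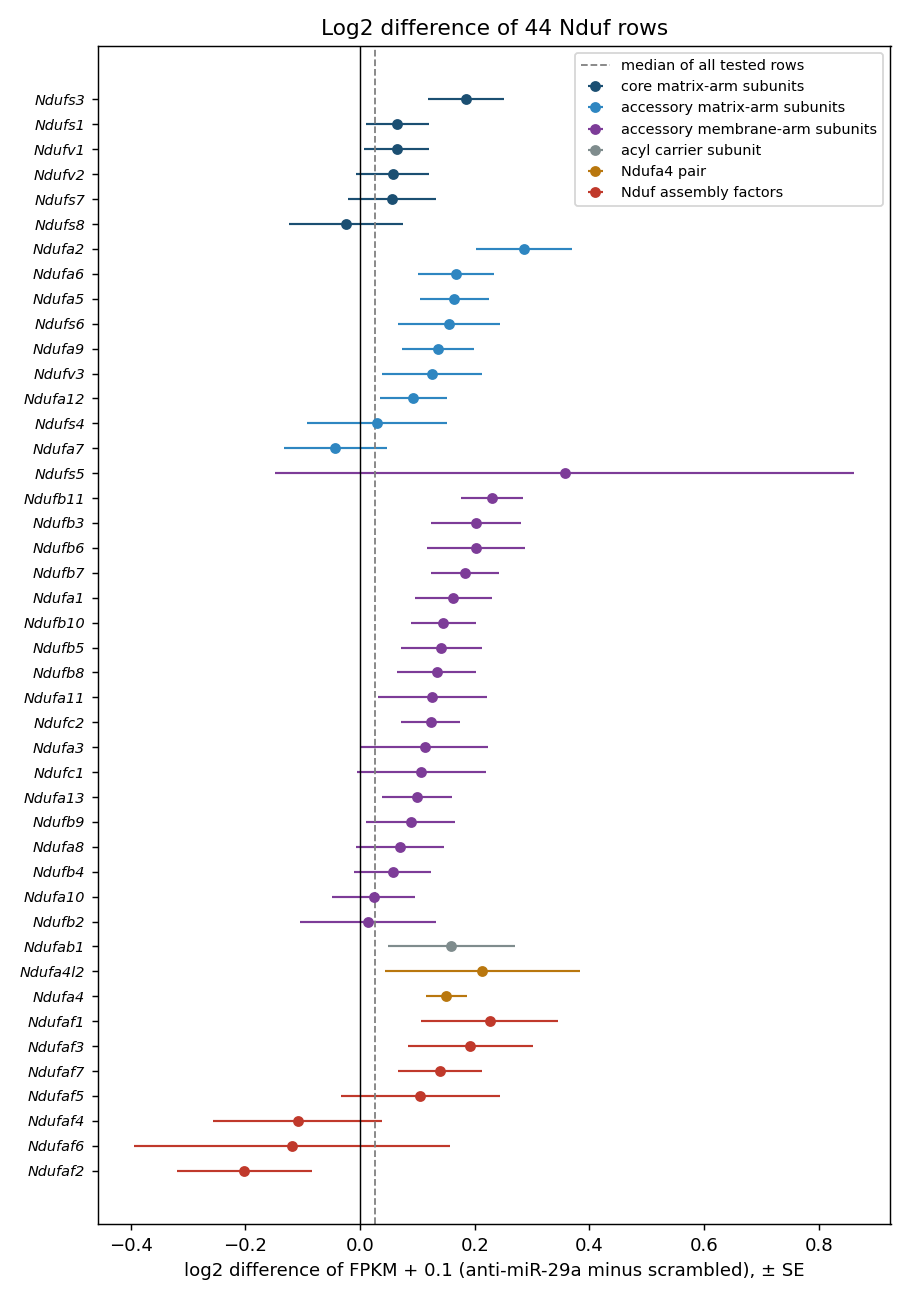
Log2 difference of FPKM + 0.1 (anti-miR-29a minus scrambled, horizontal axis) with its standard error for 44 Nduf rows, coloured by role, 4 libraries per group. The dashed line marks the median of all tested rows, 0.03, and 39 of the rows drawn lie above 0.

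The shift was uneven over the libraries. Relative to the mean of the scrambled libraries, the subunit median was -0.058, -0.040, 0.071 and 0.051 in scrambled replicates 1 to 4. In anti-miR-29a replicates 1 to 4 it was 0.019, 0.116, 0.141 and 0.173. Anti-miR-29a replicate 1 thus lay inside the scrambled range, whereas the other anti-miR-29a libraries lay above it. Anti-miR-29a replicate 4 held the highest value of 14 members and replicate 3 of 12, and scrambled replicates 1 and 2 held the lowest value of 14 members each. The summed FPKM of the 38 subunit rows was 3121 to 3417 in scrambled libraries against 3304 to 3629 in the anti-miR-29a ones, which overlap.

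**Figure D2:**
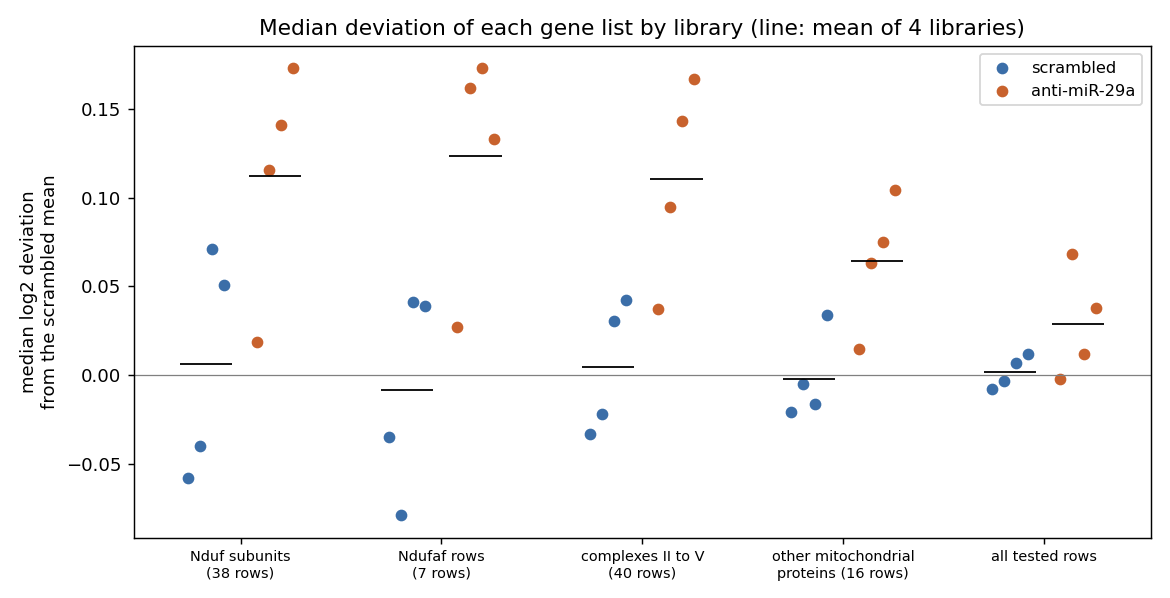
Median log2 deviation from the scrambled mean (vertical axis) in each library, for Nduf subunits, Ndufaf rows, complexes II to V, other mitochondrial proteins and all tested rows, with replicates 1 to 4 from left and a line at the mean of 4 libraries. The subunit medians of the scrambled libraries reach 0.071 and anti-miR-29a replicate 1 stands at 0.019.

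The core subunits of the matrix arm carry the flavin and the iron-sulfur clusters, and their median difference was 0.06 with 6 of 7 positive. Ndufs3, a core subunit of the ubiquinone module, read 66.6, 68.2, 69.8 and 61.6 FPKM in scrambled replicates 1 to 4 and 69.1, 76.2, 84.0 and 74.0 in the anti-miR-29a libraries. The groups overlapped only through anti-miR-29a replicate 1, and the difference was 0.19 ± 0.0659 log2 units (SE; limma, adjusted p = 0.369). This was the only core subunit among the 12. A stretch of 35.8% of the Ndufs3 transcript, counted in runs of 50 bases, also occurs in other annotated transcripts, nearly all of it in the pseudogene Gm12251, so its reads may be shared. Ndufs1, the largest core subunit, read 28.7, 30.2, 28.9 and 28.9 FPKM in scrambled libraries against 28.8, 31.3, 32.4 and 29.8 in the anti-miR-29a ones. Ndufv1, which binds NADH and the flavin, read 51.9, 54.2, 55.7 and 58.0 FPKM against 56.0, 61.7, 58.2 and 54.0. Both sets overlapped widely, with differences of 0.07 and 0.06. Ndufv2, an iron-sulfur subunit beside Ndufv1, read 46.6, 42.7, 42.8 and 47.6 FPKM in scrambled libraries against 44.3, 47.6, 44.3 and 50.9 in the anti-miR-29a ones. The difference was 0.06, and the groups overlapped. Ndufs7, which holds the last iron-sulfur cluster before ubiquinone, read 72.0003, 80.7, 71.9 and 76.1 FPKM in scrambled libraries against 66.7, 79.5, 84.0 and 83.2 in the anti-miR-29a ones. Ndufs8, another iron-sulfur subunit, read 47.5, 58.5, 57.5 and 62.7 FPKM against 55.1, 49.5, 64.6 and 53.0, and its difference of -0.03 ± 0.0993 was the only negative one of the core.

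Accessory subunits of the matrix arm had a median of 0.14 with 8 of 9 positive. Ndufa2, a small matrix subunit with a thioredoxin fold, read 56.7, 46.7, 59.2 and 59.9 FPKM in scrambled libraries against 62.1, 73.1, 66.3 and 68.9 in the anti-miR-29a ones. The groups did not overlap, and the difference was 0.29 ± 0.0843 (limma, adjusted p = 0.273), the largest of any member apart from Ndufs5. The gene lies on the minus strand of chromosome 18 at 36742332 to 36744557 (GRCm38), and 11.5% of its exonic bases overlap exons of Tmco6 on the other strand. Because the library kit does not mark strand, reads there cannot be assigned. Ndufa5, at the edge of the ubiquinone module, read 87.7, 90.5, 95.8 and 99.2 FPKM against 100.4, 98.5, 115 and 105, a difference of 0.16. Ndufa6, which binds the acyl carrier protein, read 105, 103, 119 and 106 FPKM against 113, 126, 116 and 133, a difference of 0.17. In both, a scrambled library reached into the anti-miR-29a range (limma, adjusted p = 0.381 and 0.402). Ndufs6, Ndufa9, Ndufv3 and Ndufa12 differed by 0.16, 0.14, 0.13 and 0.09. Ndufs4, whose loss in mice is a model of Leigh syndrome, differed by 0.03, and Ndufa7 by -0.04. None of these 6 reached an unadjusted p under 0.05.

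The accessory subunits of the membrane arm were the most uniform role by sign, with all 19 rows positive, a median of 0.13 and a range of 0.01 to 0.23 apart from Ndufs5 at 0.36 ± 0.505, which is described separately. That count is 17 with quantile normalization or median centring and 15 with the length and GC trend removed, and 17 to 19 when any 1 library is left out. Ndufb11, an X-linked subunit, read 59.5, 56.9, 61.3 and 62.7 FPKM in scrambled libraries against 67.5, 69.4, 68.9 and 76.3 in the anti-miR-29a ones. The groups did not overlap, and the difference was 0.23 ± 0.0540 (limma, adjusted p = 0.22). The gene lies on the minus strand of chromosome X at 20615326 to 20617619 (GRCm38), with 12.9% of its exonic bases under exons of Rbm10. Of its transcript, 9.5%, counted in runs of 50 bases, also occurs in Gm6444. Ndufb7, which sits on the intermembrane-space side, read 116, 103, 120.1 and 116 FPKM against 122, 135, 135 and 124. These groups did not overlap either, although the highest scrambled and the lowest anti-miR-29a library were close, and the difference was 0.18 ± 0.0589 (limma, adjusted p = 0.314).

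The other members of this role among the 12 overlapped between groups in at least 1 library. Ndufb3 read 96.2, 101, 92.7 and 109.9 FPKM in scrambled libraries against 101, 125, 111 and 125 in the anti-miR-29a ones. Ndufb10, a subunit with a disulfide-bonded fold in the intermembrane space, read 145, 169, 145 and 161 FPKM against 169, 175, 164 and 175. Ndufa1, a small X-linked membrane subunit, read 90.2, 96.7, 109 and 103 FPKM against 105, 122, 108 and 111. In these 3, scrambled replicate 2, 3 or 4 reached into the anti-miR-29a range. Ndufb6 read 37.3, 43.6, 38.7 and 42.7 FPKM against 52.5, 45.9, 48.4 and 40.4, and 39.0% of its exonic bases lie under exons of Smim27. Ndufc2 read 97.7, 107, 113 and 109 FPKM against 112, 121, 116 and 116. Differences for Ndufb3, Ndufb10, Ndufa1, Ndufb6 and Ndufc2 were 0.20, 0.14, 0.16, 0.20 and 0.12. Ndufb8, whose longest annotated 3′ UTR holds the seed match shown above, read 139, 121, 140.4 and 135 FPKM in scrambled libraries against 132, 143, 152 and 161 in the anti-miR-29a ones. Its difference of 0.13 ± 0.0693 (limma, adjusted p = 0.517) was near the subunit median. At the low end stood Ndufa10 at 0.02 and Ndufb2 at 0.01, and both are negative with quantile normalization or median centring.

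**Figure D3:**
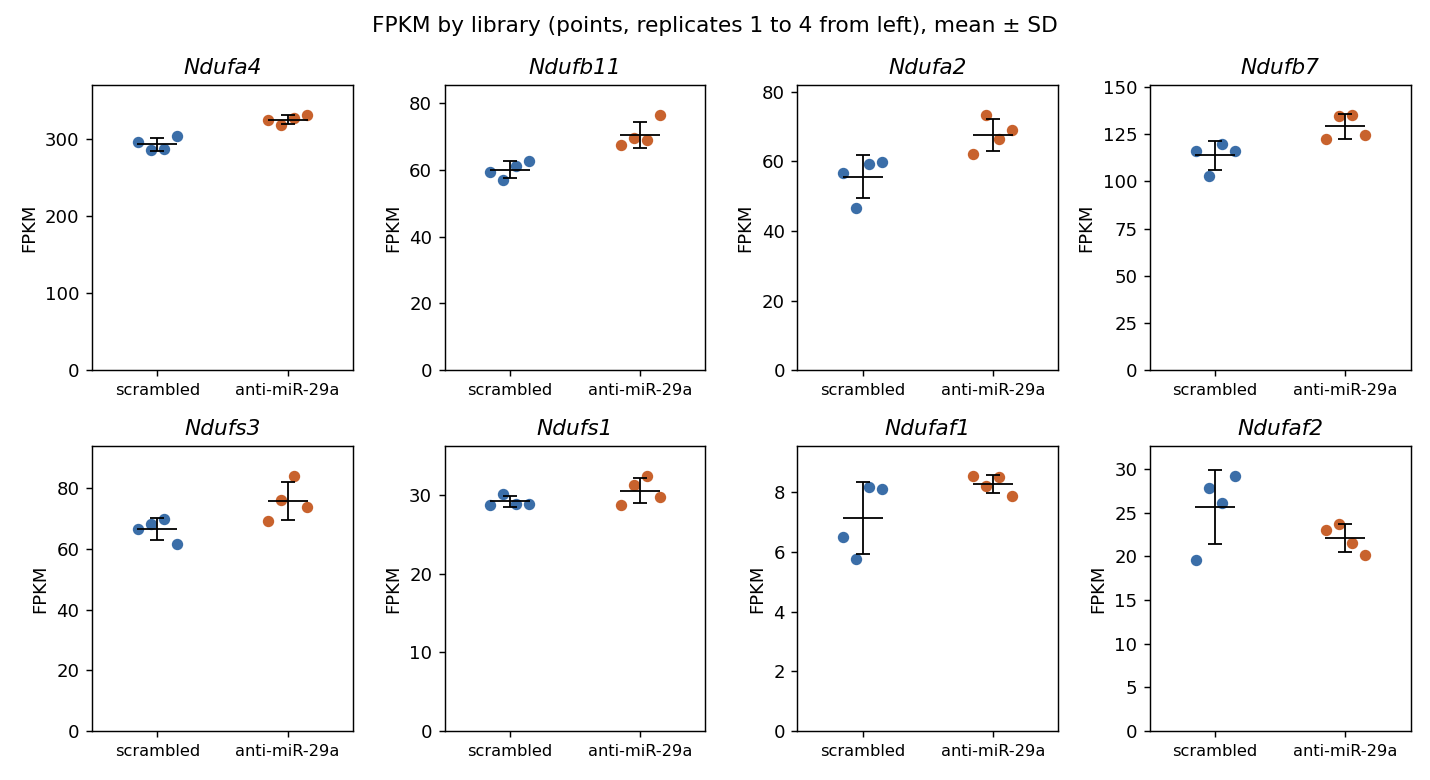
FPKM (vertical axes, from 0) in every library for 8 members, with replicates 1 to 4 from left and the mean ± SD of 4 libraries. The groups are apart in Ndufa4, Ndufb11, Ndufa2 and Ndufb7, overlap in Ndufs3, Ndufs1 and Ndufaf1, and in Ndufaf2 scrambled replicate 1 alone lies below the anti-miR-29a libraries.

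Ndufa4 carries a complex I name but has been reassigned to cytochrome c oxidase, complex IV. It read 296, 286, 287 and 304 FPKM in scrambled libraries against 325, 318, 328 and 331 in the anti-miR-29a ones. It had the smallest p of the members and the smallest spread within groups, 0.0343 log2 units. The groups did not overlap, and the difference was 0.15 ± 0.0354 (limma, adjusted p = 0.22), with a range of 0.14 to 0.17 when any 1 library was left out and 0.07 with quantile normalization. Its paralogue Ndufa4l2, known from other cells as a hypoxia-induced gene, read 4.25, 3.18, 2.68 and 3.35 FPKM against 4.61, 3.40, 3.25 and 4.38. The groups overlapped (limma, adjusted p = 0.684). Ndufab1, the mitochondrial acyl carrier protein that is present in both arms, stood at 41.5 ± 6.72 and 46.1 ± 4.42 FPKM (SD, n = 4 per group) and differed by 0.16.

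The assembly factors did not share a direction: 4 of 7 were positive and 3 negative, and 0 reached an unadjusted p under 0.05. Ndufaf1, part of the membrane-arm assembly complex in human cells, read 6.51, 5.75, 8.18 and 8.12 FPKM in scrambled libraries against 8.53, 8.21, 8.51 and 7.88 in the anti-miR-29a ones. Ndufaf3, which acts with Ndufaf4 on the ubiquinone module, read 14.1, 13.2, 14.2 and 14.1 FPKM against 15.96, 16.6, 12.7 and 19.0. These 2 differed by 0.23 and 0.19, the first with low values in scrambled replicates 1 and 2 and the second with anti-miR-29a replicate 3 below every scrambled library. Ndufaf1 was 0.13 without scrambled replicate 2, and Ndufaf3 was 0.30 without anti-miR-29a replicate 3 and 0.11 without anti-miR-29a replicate 4. Ndufaf7, an arginine methyltransferase in human cells, read 8.99, 9.25, 8.97 and 9.64 FPKM against 9.38, 10.3, 10.9 and 10.1, a difference of 0.14 with overlap in 1 library of each group. Ndufaf5, a hydroxylase that acts on human NDUFS7, read 6.44, 4.81, 5.70 and 5.02 FPKM in scrambled libraries against 4.61, 6.53, 6.16 and 6.42 in the anti-miR-29a ones. It differed by 0.11, with anti-miR-29a replicate 1 the lowest of all 8, and by 0.046 to 0.22 when any 1 library was left out.

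Ndufaf2, a late-acting factor and a paralogue of Ndufa12, read 19.5, 27.8, 26.1 and 29.2 FPKM in scrambled libraries against 23.0, 23.7, 21.5 and 20.1 in the anti-miR-29a ones. All anti-miR-29a libraries were below the scrambled mean, but scrambled replicate 1 was the lowest of the 8, and the difference of -0.20 ± 0.118 did not pass (limma, adjusted p = 0.573). Without that library it was -0.33 (limma, adjusted p = 0.254). Exons of the long noncoding gene B230220B15Rik cover 65.6% of its exonic bases on the other strand, so its reads are not assignable to a strand. Ndufaf4 read 4.62, 3.68, 4.44 and 3.34 FPKM against 4.61, 3.35, 3.37 and 3.56. Ndufaf6, an early factor of the membrane arm in human cells, read 3.10, 3.99, 2.69 and 3.34 FPKM against 1.79, 3.00, 5.31 and 2.76. Both overlapped widely, at -0.11 and -0.12. Ndufaf4 ran from -0.21 to -0.040 when any 1 library was left out, and Ndufaf6 turned to 0.12 without anti-miR-29a replicate 1. The assembly median of 0.11 was 0.046 without scrambled replicate 2, 0.055 without anti-miR-29a replicate 2, 0.063 without anti-miR-29a replicate 4, 0.066 without scrambled replicate 4, 0.18 without anti-miR-29a replicate 1 and 0.04 with the length and GC trend removed.

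Ndufs5, an intermembrane-space subunit of the membrane arm, varied far more than any other member. It read 25.9, 11.7, 79.3 and 29.1 FPKM in scrambled libraries against 41.9, 19.1, 46.3 and 51.3 in the anti-miR-29a ones, a 6.76-fold range with no order by group. Its difference was 0.36 ± 0.505, -0.08 without scrambled replicate 2, 0.84 without scrambled replicate 3, 0.68 without anti-miR-29a replicate 2 and 0.20 without anti-miR-29a replicate 4. The processed pseudogene BC002163 on chromosome 16 (42955631 to 42955949, GRCm38) shares 72.6% of its runs of 50 bases with Ndufs5 and has 2 rows in the table. The first row read 108, 8.62, 15.6 and 12.9 FPKM in scrambled libraries against 121, 11, 10.9 and 86.0 in the anti-miR-29a ones. The second read 11.7, 120.4, 87.0 and 126 FPKM against 8.45, 141, 105 and 8.20. In every library exactly 1 of the 2 pseudogene rows was high and the other low, so the high row changed between libraries of the same group. The sum of the 3 rows ran from 141 to 182 FPKM, a 1.29-fold range, with 159 ± 19.2 in scrambled libraries against 163 ± 12.3 in the anti-miR-29a ones (SD, n = 4). Ndufs5 held 8.33% to 43.6% of that sum. FPKM divides each row by its own length, so the sum is a description, and the split between the rows in these files is not a measure of Ndufs5. Without Ndufs5 the subunit median was 0.13.

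**Figure D4:**
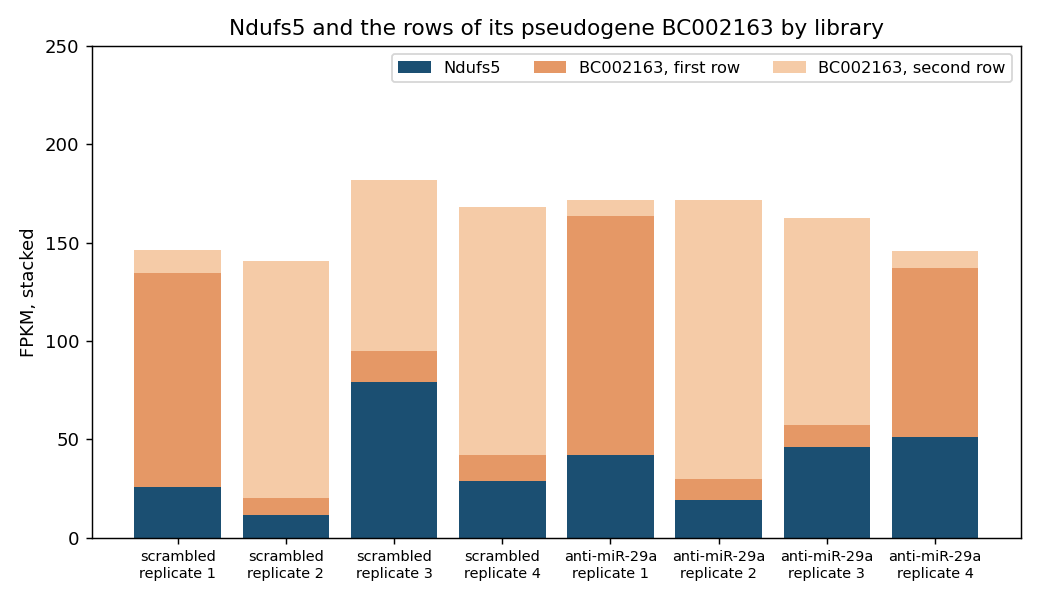
Stacked FPKM of Ndufs5 and the 2 rows of its processed pseudogene BC002163 in each library (vertical axis, from 0). Ndufs5 ranges from 11.7 to 79.3 FPKM while the stack stays between 141 and 182 FPKM.

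Other members share sequence with other annotated transcripts too. Runs of 50 bases shared with other annotated transcripts made up over 20% of the transcript in 5 members: Ndufb4 (37.0%), Ndufs3, Ndufs5, Ndufa12 (26.2%) and Ndufb9 (23.4%). For Ndufb9 the shared runs belong to Gm49356, whose exons overlap those of Ndufb9 on the same strand. Exons of another gene overlapped at least part of the exonic sequence in 19 members. Values of rows with a shared run or an overlap are less certain than those of rows with neither. There were 19 members with neither, Ndufa4, Ndufb7 and Ndufc2 among them.

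Complex I transcripts are short, and the difference between groups varied with transcript length over all genes. The members' median length was 971 nt against 2960 nt for the tested rows. The 24 members of 200 to 1000 nt had a median of 0.15 with 21 positive, and the 960 tested rows of that length had 0.12 with 72.8% positive. The 21 members over 1000 nt had a median of 0.10 with 19 positive, and the 12791 tested rows over 1000 nt had 0.02 with 55.5% positive. At an unadjusted p under 0.05, 11 of the 24 shorter members were higher, as were 170 of the 960 tested rows. Of the 21 longer members 1 was higher, as were 868 of the 12791. All 4 members without overlap between groups were of the shorter class, where 57 of the 960 rows had none in that direction. The part of length in the members' shift was not tested beyond removal of the trend, which left a subunit median of 0.06 beside 0.03 for all rows.

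**Figure D5:**
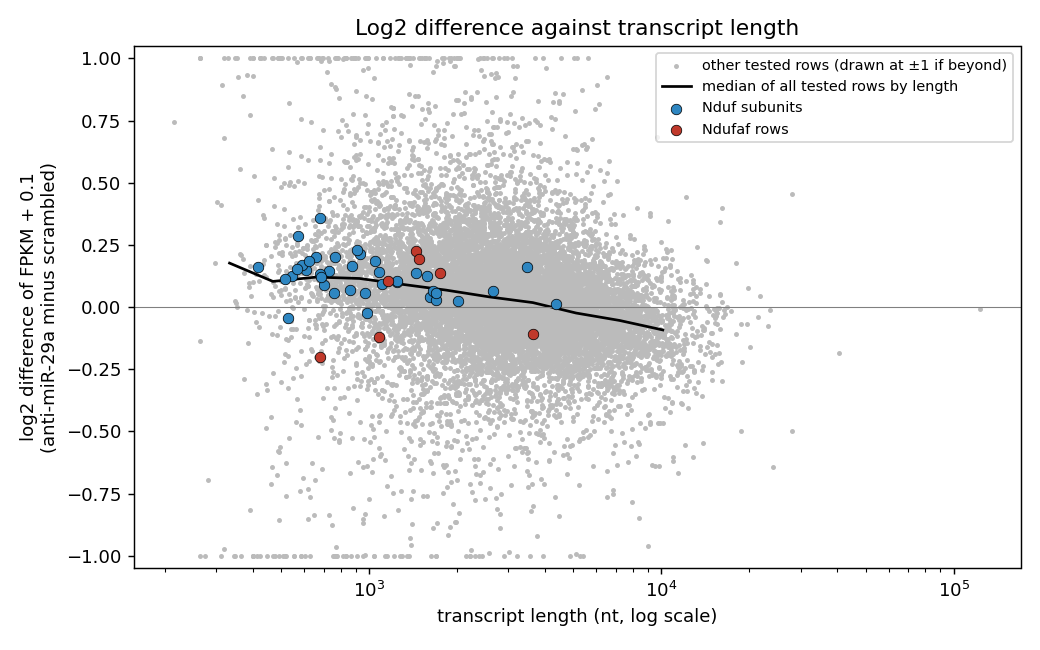
Log2 difference of FPKM + 0.1 (vertical axis) against transcript length (log scale) for all tested rows of at least 200 nt, with the median by length class as a line and Nduf rows as large points. Members of 200 to 1000 nt have a median of 0.15 beside 0.12 for all rows of that length.

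Promoters of respiratory genes are known to carry sites for NRF-1, YY1 and ETS-family factors, and these letters were searched in the 300 bases around the start site (250 before and 50 after, RefSeq, GRCm38.p6) on both strands. Promoters were found for 39 of 45 members. The core of the NRF-1 motif, CGCATGCG, was present in 4 of 39 members (10.3%) and in 2.07% of all 27025 genes with a promoter. The YY1 core, ATGGCGGC, was present in 6 members (15.4%) and in 2.60% of all genes, and the ETS core, CCGGAAG, in 5 members (12.8%) and 9.93%. The YY1 matches of Ndufa9, Ndufb5, Ndufs4, Ndufs6 and Ndufs7 begin 19 to 38 bases after the start site. These letters open with ATG, and whether they belong to coding sequence was not examined. No match overlaps another in the promoters shown. Ndufb7 and Ndufs3 are shown because they are the members with a match among the 5 of smallest p, and Ndufa8 and Ndufb5 because their NRF-1 and YY1 matches lie nearest the start site. Capitals mark the matches, which are a description of letters and not of bound sites. The ETS match of Ndufb7 begins 20 bases before the start site (plus strand, chr8:83566508-83566807), and those of Ndufs3 begin 27 bases before and 1 base after it on opposite strands (minus strand, chr2:90904672-90904971). The NRF-1 match of Ndufa8 begins 9 bases before (minus strand, chr2:36049289-36049588) and the YY1 match of Ndufb5 19 bases after (plus strand, chr3:32736813-32737112).
Ndufb7: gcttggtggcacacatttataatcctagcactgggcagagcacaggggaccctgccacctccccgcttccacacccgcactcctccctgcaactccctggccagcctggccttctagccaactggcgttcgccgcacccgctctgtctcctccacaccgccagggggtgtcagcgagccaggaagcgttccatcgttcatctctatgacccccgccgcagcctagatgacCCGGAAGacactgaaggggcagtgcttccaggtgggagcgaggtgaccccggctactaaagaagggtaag
Ndufs3: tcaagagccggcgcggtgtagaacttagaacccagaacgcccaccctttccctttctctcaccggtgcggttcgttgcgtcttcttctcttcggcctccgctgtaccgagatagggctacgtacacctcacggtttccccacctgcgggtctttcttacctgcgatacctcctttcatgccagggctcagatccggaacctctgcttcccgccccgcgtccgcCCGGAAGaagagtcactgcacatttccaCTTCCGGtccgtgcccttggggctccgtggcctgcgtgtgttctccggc
Ndufa8: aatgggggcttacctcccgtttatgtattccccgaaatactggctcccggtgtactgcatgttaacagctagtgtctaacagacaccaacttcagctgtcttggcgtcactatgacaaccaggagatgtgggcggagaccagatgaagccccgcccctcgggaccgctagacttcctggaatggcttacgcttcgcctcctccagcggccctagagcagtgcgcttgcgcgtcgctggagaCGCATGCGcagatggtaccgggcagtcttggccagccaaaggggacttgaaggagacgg
Ndufb5: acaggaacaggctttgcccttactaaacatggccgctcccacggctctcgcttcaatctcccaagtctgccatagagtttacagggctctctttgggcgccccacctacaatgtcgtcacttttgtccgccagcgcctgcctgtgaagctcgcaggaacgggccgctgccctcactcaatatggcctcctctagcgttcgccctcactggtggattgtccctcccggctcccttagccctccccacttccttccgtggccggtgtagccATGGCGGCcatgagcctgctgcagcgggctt

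No gene of the other respiratory lists described here passed the adjusted threshold, and these lists were not refitted under the alternative settings. Complexes II to V had 37 of 40 rows positive with a median of 0.10, 15 at an unadjusted p under 0.05 and higher, and 4 with no overlap between groups. Over all tested rows 56.6% were positive, 7.54% were higher at that p, and 4.02% had every anti-miR-29a library above every scrambled one. By library the median of complexes II to V was lowest of its group in anti-miR-29a replicate 1, at 0.037, inside the scrambled range, as it was for the complex I subunits. Atp5g1, a membrane-ring subunit of ATP synthase, had the smallest p of that list with a difference of 0.28 (limma, adjusted p = 0.201), and Cox7c was the lowest at -0.09. Other mitochondrial proteins, such as porins and import receptors, had 11 of 16 positive, a median of 0.07, and 3 rows at an unadjusted p under 0.05 and higher. Slc25a4, the ADP/ATP carrier, had the smallest p of these at 0.12, and Tomm70a, an import receptor, was the lowest at -0.11. Complex I assembly factors with other names had 9 of 13 tested positive, a median of 0.02 and 0 at an unadjusted p under 0.05 in either direction. Among them 1810043H04Rik, an older symbol of Ndufaf8, stood at 13.6 ± 2.58 and 13.67 ± 1.205 FPKM, and Tmem126a was the lowest at -0.37 and also had the smallest p (limma, adjusted p = 0.49). The mitochondrially encoded subunits were not analysed here.

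Regulators of respiratory genes had 9 of 11 positive and a median of 0.06. Esrra, a nuclear receptor that acts with the coactivator PGC-1 alpha, read 13.5 ± 0.389 in scrambled libraries against 15.6 ± 0.775 FPKM in the anti-miR-29a ones (SD, n = 4). Its groups did not overlap, at 0.21 ± 0.0633 (limma, adjusted p = 0.291). Ppargc1a, which encodes PGC-1 alpha, stood at 6.33 ± 0.357 and 6.38 ± 0.480 FPKM, Nrf1 at 4.03 ± 0.505 and 3.99 ± 0.670, and Tfam at 5.63 ± 0.200 and 5.68 ± 0.576. The lowest member of that list was Gabpb1 at -0.03.

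Markers of the tissue's cell types were read beside these values. All 8 neuron markers were well expressed (lowest mean 18.2 FPKM), with a median difference of -0.01, 3 of 8 positive and a summed level of 2958 to 3117 FPKM in scrambled libraries against 2865 to 3145 in the anti-miR-29a ones. In 2 of these 8 every anti-miR-29a library lay below every scrambled one (2.29% of all tested rows). Only 1 of them, Syt1, a synaptic vesicle protein, was lower at an unadjusted p under 0.05 (3.18% of all tested rows). It differed by -0.10 (limma, adjusted p = 0.444). Fibroblast markers had 5 of 5 tested rows positive, of 6 listed, with a median of 0.61. In 3 of them the unadjusted p was under 0.05, where 7.54% of all tested rows were higher at that p. Their summed level was 326.7 to 510.9 against 475.1 to 730.3 FPKM. Most of that sum was Ptgds alone, at 307 to 477 against 449 to 686 FPKM. Astrocyte markers had 3 of 6 positive, 2 of them at an unadjusted p under 0.05, a median of 0.13 and a summed level of 532.4 to 699.1 against 576.4 to 879.5 FPKM. Oligodendrocyte markers had 0 of 6 positive, a median of -0.15 and a summed level of 803.4 to 1644 against 895.4 to 1193 FPKM. Microglia and endothelial markers each had 3 positive rows, of 6 and 5, with medians of -0.03 and 0.16, and 1 microglia row was higher at an unadjusted p under 0.05. Their summed levels were 122.4 to 185.4 against 148.9 to 191.7 FPKM and 51.67 to 66.19 against 60.79 to 73.22 FPKM. No marker row was at 0 in every library. The part of cell makeup in the complex I values was not tested.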

How the data were processed

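RNA of visual cortex was read as bulk RNA-seq in 8 libraries, 4 per group, grouped by the submitters' labels. The deposited values are FPKM per gene, made by the authors with CASAVA 1.8.2, Bowtie and Cuffnorm on mm10, per the submitters' processing notes, which give no roles or order. Annotation, filters and scaling were not given in the sources used here. There were no counts, so the depth per library is unknown and no counting interval is given. Between 12538 and 12769 rows reached 1 FPKM per library, and Pearson correlations of log2 values between libraries were 0.931 to 0.963.

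Rows with a mean of at least 0.5 FPKM (13912 of 24883) were fitted together as log2(FPKM + 0.1) with limma 3.58.1 (R 4.3.3, trended empirical Bayes, no covariate), and p was Benjamini-Hochberg adjusted over all of them at a threshold of 0.05. Fold changes on this scale understate those of low genes. Lists are described by counts and medians. Members and lists were chosen with earlier results of these data known. Values per library are given for the 12 members of smallest p, all Ndufaf rows, Ndufa4 and Ndufa4l2, the 3 most negative members and the core matrix-arm subunits, except 1 member that counts in every total but is not reported here. For the mitochondrial and regulator lists the gene of smallest p and the most negative one are named. Ndufs5, Ndufb8, Ndufab1, Ndufa10, Ndufb2, the promoters shown and the remaining members were named for other reasons or after their values were seen. Alternatives were another pseudocount or filter, quantile normalization, median centring, removal of a fitted curve on length and GC content (mgcv 1.9.3), the replicate number as a block and each library left out.

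Gene models, 3′ UTRs, overlaps and shared runs of 50 bases came from GENCODE on GRCm38, the assembly that mm10 names. Sequences came from RefSeq or that genome. All columns of the table belonged to these samples.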

Additional observations from a re-analysis of the deposited data

Results flagged for a closer look

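In each group, for every member and for the medians of the subunits and of the assembly factors, the library at either end was compared with the others by its gap to the nearest library as a share of the group's range. Of 94 groups of 4 libraries examined, 6 had a library beyond the 95% critical value of Dixon's test, and chance gives about 1 in 20. Ndufs4 read 24.0904 FPKM in scrambled replicate 3, above the other scrambled libraries at 19.535 to 19.7907. Ndufs1 read 30.1624 FPKM in scrambled replicate 2, above 28.7192 to 28.8861. Ndufa11 read 17.7048 FPKM in scrambled replicate 1, below 20.669 to 21.2615. Ndufaf3 read 13.1627 FPKM in scrambled replicate 2, below 14.1371 to 14.2294. In anti-miR-29a replicate 1, Ndufa8 read 76.4757 FPKM, below 84.3512 to 85.7593, and Ndufaf4 read 4.60505 FPKM, above 3.34923 to 3.56262.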

How the results depend on the processing

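No alternative gave a called member. The count of members higher at an unadjusted p under 0.05, 12 as reported, was 3 with quantile normalization, 7 with median centring, 3 with the length and GC trend removed and 5 to 16 when each library was left out. Over all rows that count, 1049 as reported, was 713, 748, 834 and 754 to 1136. The count of members without overlap, 4 as reported, was 4 to 10 when each library was left out, and 559 over all rows became 764 to 1055. With median centring it was 3 members and 407 of all rows. The assembly median of 0.11 was 0.038 with the trend removed and 0.046 to 0.18 when each library was left out, and the subunit median stayed within 0.06 to 0.15 over all alternatives. Among member values under the alternatives, 718 kept their direction and side of the threshold and 27 changed sign. With quantile normalization these were Ndufa10 (-0.026), Ndufb2 (-0.025) and Ndufs4 (-0.0019). With median centring they were Ndufa10 (-0.0057), Ndufb2 (-0.015) and Ndufs4 (-0.00019). With the trend removed they were Ndufa10 (-0.027), Ndufa12 (-0.0077), Ndufa8 (-0.057), Ndufb4 (-0.060), Ndufb9 (-0.018) and Ndufs7 (-0.057). Leaving out each library gave -0.021 to 0.068 for Ndufa10, -0.10 to 0.013 for Ndufa7, -0.39 to 0.12 for Ndufaf6, -0.057 to 0.12 for Ndufb2, -0.078 to 0.12 for Ndufs4, -0.076 to 0.84 for Ndufs5 and -0.11 to 0.028 for Ndufs8. The cause of these changes was not tested. Same-numbered libraries did not deviate together (correlations of -0.0856, 0.0143, -0.106 and -0.0972). With 4 libraries per group this cannot show that they share only a number. With the replicate block 12 members were higher at an unadjusted p under 0.05 and 0 were called. With 4 libraries per group and unknown depth, differences of the size seen here did not pass the adjusted threshold.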
